A study of Homo sapiens with 6 samples.

Results

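The nuclear-encoded subunits of the mitochondrial respiratory chain and of ATP synthase were followed in human embryonic stem cells after transfection with an antisense oligonucleotide to LINE-1. Members were chosen by symbol, as rows of the deposited count table with a name of the NDUFA, NDUFB, NDUFC, NDUFS, NDUFV, SDH, UQCR, COX4 to COX8 or ATP5 type. This matched 93 rows. The 14 rows with a total under 15 reads over all 6 libraries were dropped, which left 79 members among the 53712 rows of the table. By symbol, 37 belong to complex I, 4 to complex II, 9 to complex III, 13 to complex IV and 16 to complex V. The rows nearest the limit were UQCRBP1 with 12 reads and UQCRFS1P3 with 11 reads outside it, and COX4I2 with 35 reads and COX7A1 with 40 reads inside it. Of the members, UQCRFS1P1 is a pseudogene row and ATP5S is not a structural subunit. NDUFA4 carries a complex I symbol but is now described as a subunit of complex IV.

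The cells were H9, an established human embryonic stem cell line, grown in PXGL, a medium used to hold such cells in a naive state of pluripotency. They received 25 nM of either the antisense oligonucleotide ASO-L1 or the sense oligonucleotide SO-L1, which served as the control, and RNA was collected 48 hours later without sorting the transfected cells. Both groups were also given 0.7 uM trans-ISRIB, a blocker of integrated stress response signalling, 5 uM of the caspase inhibitor emricasan and 10 uM of the ROCK inhibitor Y-27632, all withdrawn after 24 hours. Each group had 3 poly(A)-selected libraries, and the labels do not say whether these came from separate cultures. The p-values therefore cover just the scatter among these libraries, part or all of which could be technical. The level of LINE-1 RNA was not analysed here, so the knockdown itself was not checked.

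The respiratory chain passes electrons from NADH (complex I) and succinate (complex II) through complex III and cytochrome c to oxygen (complex IV), and the proton gradient built on the way drives ATP synthase (complex V). Most subunits are encoded in the nucleus, translated in the cytosol and imported, while a core set is encoded by mitochondrial DNA, so complexes I, III, IV and V are assembled from both genomes. Complex II is encoded by nuclear genes alone and is also an enzyme of the TCA cycle. Naive human pluripotent cells are known to respire more than primed ones, which lean further on glycolysis.

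Library totals ran from 23330875 to 31164287 reads, and 16873 genes had enough reads to be tested. Among markers of the labelled cell state, KLF17 was near 0, at 0.263 to 0.936 CPM (reads scaled to a common library size) over the 6 libraries. Other naive markers stood higher, such as DNMT3L (76.9 to 82.7 CPM in SO-L1, 49.3 to 63.1 in ASO-L1) and KHDC3L (50.8 to 73.5 and 14.4 to 32.0). While these fell, KLF4 (41.6 to 51.6 and 57.9 to 99.7 CPM) and TFCP2L1 (34.6 to 39.5 and 47.05 to 57.4) rose. The 10 naive markers summed to 308 to 341 CPM in SO-L1 and 271 to 277 CPM in ASO-L1, with 2 called higher and 4 lower of 9 tested. Over all tested genes edgeR called 18% higher and 15.7% lower, which also applies to the marker counts that follow. The primed markers summed to 581 to 602 CPM in SO-L1 and 760 to 839 CPM in ASO-L1, with 4 of 8 called higher and none lower by edgeR. The summed markers of the pluripotent core were lower in ASO-L1, at 3496 to 3769 CPM in SO-L1 and 2976 to 3431 CPM in ASO-L1. Of these 5 markers 1 was called lower and none higher, and SALL4 was not lower (311 to 325 and 322 to 339 CPM). Amnion markers summed to 10.37 to 14.03 and 16.3 to 24.6 CPM and striated muscle markers to 19.3 to 22.2 and 29.8 to 44.2 CPM, again without overlap. Of 4 amnion markers 1 was called higher and 1 lower, and of 7 muscle markers 2 were tested and both called higher. The amnion rise lay mostly in HEY1 (0.881 to 3.34 CPM in SO-L1, 8.89 to 16.8 in ASO-L1), while IGFBP5 was lower (6.53 to 10.2 and 3.03 to 4.62). The muscle rise lay mostly in ACTC1 (18.2 to 21.0 and 27.4 to 42.0 CPM). The sums of fibroblast (474 to 536 and 528 to 579 CPM), trophectoderm, primitive endoderm and neuron markers overlapped between the groups. Single markers were still called, with 1 of 6 fibroblast, 2 of 7 trophectoderm and 2 of 5 primitive endoderm markers higher and none lower. Of 5 neuron markers 2 were called lower and none higher. TFAP2C made up most of the trophectoderm sum (83.4 to 89.3 and 82.96 to 86.7 CPM). TUBB3 made up most of the neuron sum (544 to 559 and 566 to 699 CPM). These 2 sums therefore say little about the other markers in their lists. In bulk RNA, fewer cells of a type and less RNA per cell cannot be told apart, and the part of these marker differences in the results below was not tested.

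Most respiratory chain subunits moved little, and those that passed the test lay in both directions in complexes I and V and were all lower in complexes II and III. Of the 79 members, 77 had enough reads to be tested. A gene was called where edgeR's quasi-likelihood test gave a Benjamini-Hochberg adjusted p under 0.05 over all 16873 genes. By that rule 12 of 77 members (15.6%) were called, against 33.7% of all tested genes. The 4 members called higher in ASO-L1 were 5.19% of those tested, where 18% of all genes were called higher. The 8 called lower were 10.4%, where 15.7% of all genes were called lower. With the replicate number as a block in the same test, 8 members were called higher and 17 lower, against 23.3% and 22.5% of all genes, and all 12 calls were among them. The value in every ASO-L1 library lay above every SO-L1 library for 9 members and below for 23, where 25.8% and 25.1% of all genes were separated in these directions.

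The differences were small. The median log2 fold change over the 77 members was -0.09, where the median of all genes was -0.01, and 55 members (71.4%) were below 0 against 51.2% of all genes. The range ran from -0.48 for NDUFB8 to 0.68 for NDUFA13, and the median size without sign was 0.13 against 0.27 for all genes. Among the 72 members with a mean of at least 10 CPM, 16.7% were called and none differed by more than 0.5 on the log2 scale. Among the 9599 genes at that level, 42.7% were called and 15% differed by more than 0.5. The median standard error was 0.077 for the members and 0.122 for all genes. At a mean of at least 10 CPM it was 0.076 and 0.088, so the members' error was the smaller there too, but by less.

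**Figure D1:**
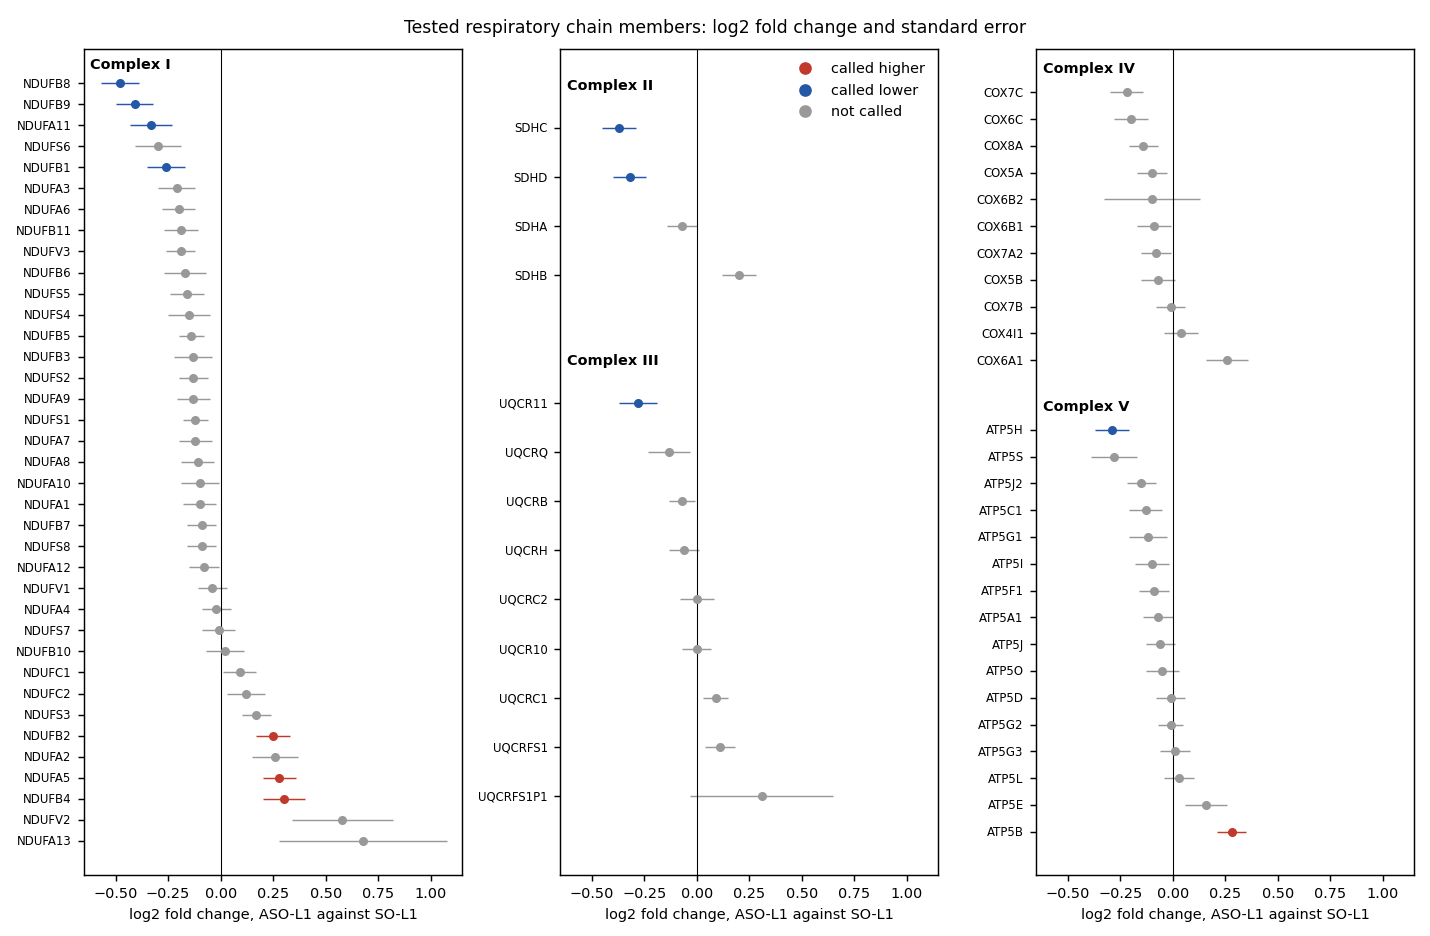
Log2 fold change of ASO-L1 against SO-L1 (x axis) for each of the 77 tested members, by complex, with the standard error of the fit as a line. Blue points were called lower, red points higher and grey points not called, and the 12 called members lie between -0.48 and 0.30.

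**Figure D2:**
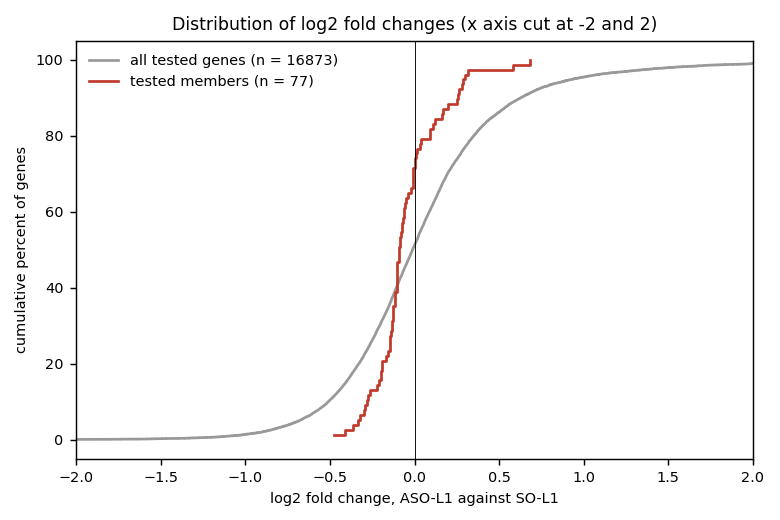
Cumulative percent of genes (y axis) against log2 fold change (x axis) for the 77 members in red and all 16873 tested genes in grey, with the x axis ending at -2 and 2. The curve of the members is steeper, and 71.4% of members lie below 0 against 51.2% of all genes.

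The control libraries were not level for these genes. SO-L1 replicate 1 was the highest of the 3 SO-L1 libraries for 69 of the 77 members (89.6%), where it was the highest for 29.2% of all tested genes. The median member stood 0.11 above its SO-L1 mean in that library on the log2 scale, 0.08 below it in SO-L1 replicate 2 (-0.08) and at -0.03 in SO-L1 replicate 3. In ASO-L1 the same medians were -0.08, -0.10 and -0.06, so 1 control library stood above the other 5. Without SO-L1 replicate 1 the median log2 fold change of the members was -0.036, and members called lower numbered 3 in place of 8, with 4 called higher. Calls over all genes also went down in that setting, from 2653 to 1448 lower and from 3031 to 1718 higher. Without SO-L1 replicate 3 there were 3 called lower and 1 higher, where all genes gave 1374 lower and 1601 higher. Without SO-L1 replicate 2 there were 11 called lower and 2 higher, where all genes gave 2419 lower and 2903 higher, and the members' median was -0.137.

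**Figure D3:**
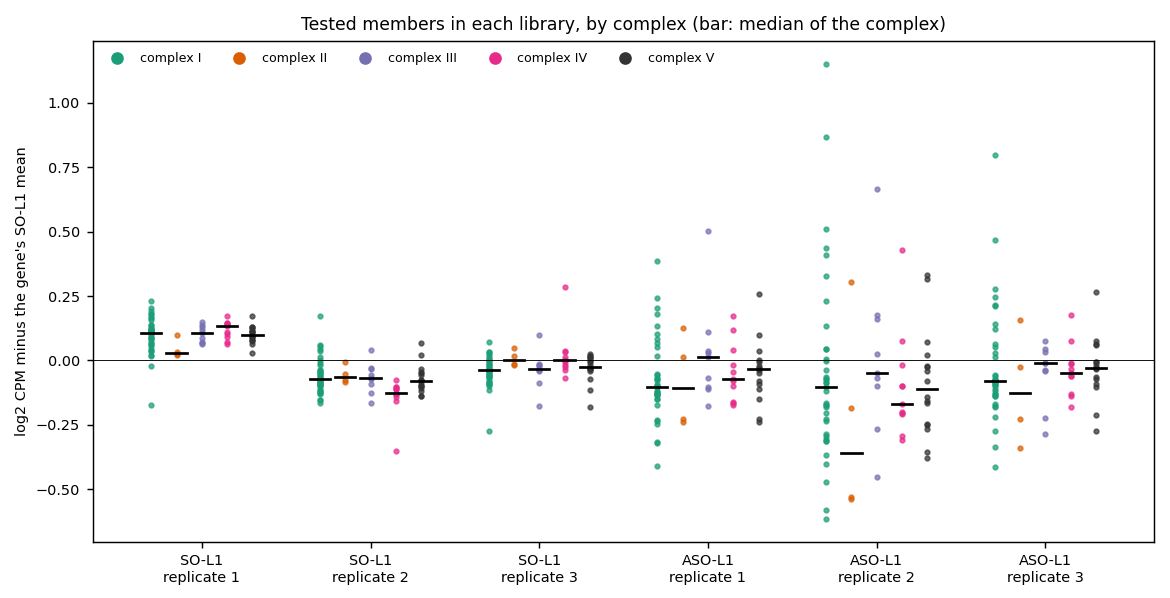
Log2 CPM of each tested member minus its mean over the SO-L1 libraries (y axis) in each of the 6 libraries (x axis), coloured by complex, with a bar at the median of the complex. SO-L1 replicate 1 stands above the other libraries, with a median of 0.11 over all members.

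Complex I, the NADH dehydrogenase, held 7 of the 12 calls and 37 of the 77 tested members. Of these 37, 3 were called higher and 4 lower (18.9%), against 15.6% of all members and 33.7% of all genes. The median log2 fold change was -0.11, with 27 members below 0. NDUFB8, an accessory subunit of the membrane arm, had 49.3, 41.8 and 45.4 CPM in SO-L1 replicates 1 to 3 and 34.2, 29.6 and 34.1 CPM in ASO-L1. The groups did not overlap, and the lowest value was that of ASO-L1 replicate 2. The mean fell from 45.5 ± 3.77 to 32.6 ± 2.60 CPM (SD, n = 3 in each group), a log2 fold change of -0.48 ± 0.09 (SE, adjusted p = 0.00431 by edgeR). NDUFB8 shares 48.5% of its exon bases with other annotated genes, on either strand. Among the other called members the share was 35.9% for NDUFB2, 21% for NDUFB9, 19.1% for ATP5H, 12.2% for SDHD and 12.1% for NDUFA11. It was 10.9% for UQCR11, 5.47% for SDHC and 0% for NDUFA5, NDUFB1, NDUFB4 and ATP5B.

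NDUFB9, another membrane arm subunit, had 156, 137 and 133 CPM in SO-L1 and 114, 94.9 and 113 CPM in ASO-L1. All 3 ASO-L1 libraries lay below the control libraries, with ASO-L1 replicate 2 again the lowest. The log2 fold change was -0.41 ± 0.09 (SE, adjusted p = 0.00692 by edgeR). NDUFA11, also of the membrane arm, had 22.5, 19.1 and 21.0 CPM in SO-L1 and 16.7, 15.8 and 17.2 CPM in ASO-L1. Its groups did not overlap, and its log2 fold change was -0.33 ± 0.10 (SE, adjusted p = 0.0235 by edgeR). NDUFB1, which was named after its values were seen, had a log2 fold change of -0.26 ± 0.09 (SE, adjusted p = 0.0499 by edgeR). That call was the least stable, since DESeq2 gave NDUFB1 an adjusted p of 0.0542 and limma-voom 0.0552, and it was lost without any 1 of 5 libraries, all but SO-L1 replicate 2. The NDUFA11 call was lost without replicate 1 of SO-L1 (adjusted p = 0.0982 by edgeR), replicate 3 of SO-L1 (0.0779) or replicate 1 of ASO-L1 (0.0727), while NDUFB9 kept its call without any single library.

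The 3 complex I subunits called higher were NDUFA5, NDUFB2 and NDUFB4. NDUFA5, an accessory subunit of the peripheral arm, had 85.2, 80.6 and 77.7 CPM in SO-L1 and 93.4, 108 and 94.2 CPM in ASO-L1. The groups did not overlap and ASO-L1 replicate 2 was the highest. Its mean rose from 81.2 ± 3.79 to 98.5 ± 8.12 CPM (SD, n = 3 each), with a log2 fold change of 0.28 ± 0.08 (SE, adjusted p = 0.0189 by edgeR). NDUFB2, of the membrane arm, had 50.4, 43.9 and 46.5 CPM in SO-L1 and 53.0, 58.8 and 55.6 CPM in ASO-L1, a log2 fold change of 0.25 ± 0.08 (SE, adjusted p = 0.0337 by edgeR). Its exons share 35.9% of their bases with other genes, among them the antisense gene NDUFB2-AS1. NDUFB4, named after its values were seen, had 54.3, 53.3 and 48.6 CPM in SO-L1 and 61.5, 74.2 and 56.6 CPM in ASO-L1, a log2 fold change of 0.30 ± 0.10 (SE, adjusted p = 0.0428 by edgeR). ASO-L1 replicate 2 was the highest library for both NDUFB2 and NDUFB4. None of the 3 was called without replicate 3 of SO-L1 (adjusted p by edgeR 0.0897 for NDUFA5, 0.117 for NDUFB2 and 0.164 for NDUFB4). NDUFB2 was also lost without replicate 2 of SO-L1 (0.105) or replicate 3 of ASO-L1 (0.0707), and NDUFB4 without replicate 1 (0.0931) or 2 (0.0772) of SO-L1 or replicate 1 (0.0568) or 2 (0.0762) of ASO-L1.

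By the parts of complex I, 6 of the 7 calls fell among the 20 membrane arm and other accessory subunits (30%). Of these, 2 were higher and 4 lower. In the Q module, which passes electrons to ubiquinone, 1 of 6 was called (16.7%). Over all genes 33.7% were called. In the N module, which oxidises NADH, edgeR called none of 10, while 2 were higher and 3 lower at an unadjusted p under 0.05, DESeq2 called 1 lower and limma-voom called none. With the replicate block edgeR called 1 of the 10 higher and 3 lower. Whether these parts differed was not tested. The share of all genes at an unadjusted p under 0.05 was not counted, here or in later paragraphs. The largest log2 fold changes of all members, 0.68 ± 0.40 for NDUFA13 and 0.58 ± 0.24 for NDUFV2 (SE), came from few reads and were not called. NDUFA13 had 13, 9 and 9 reads in SO-L1 and 8, 18 and 19 reads in ASO-L1 (adjusted p = 0.207 by edgeR). NDUFV2, a subunit of the N module, had 28, 28 and 31 reads in SO-L1 and 32, 42 and 43 in ASO-L1 (adjusted p = 0.0897 by edgeR). NDUFA4 was at a log2 fold change of -0.02 ± 0.07 (SE).

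**Figure D4:**
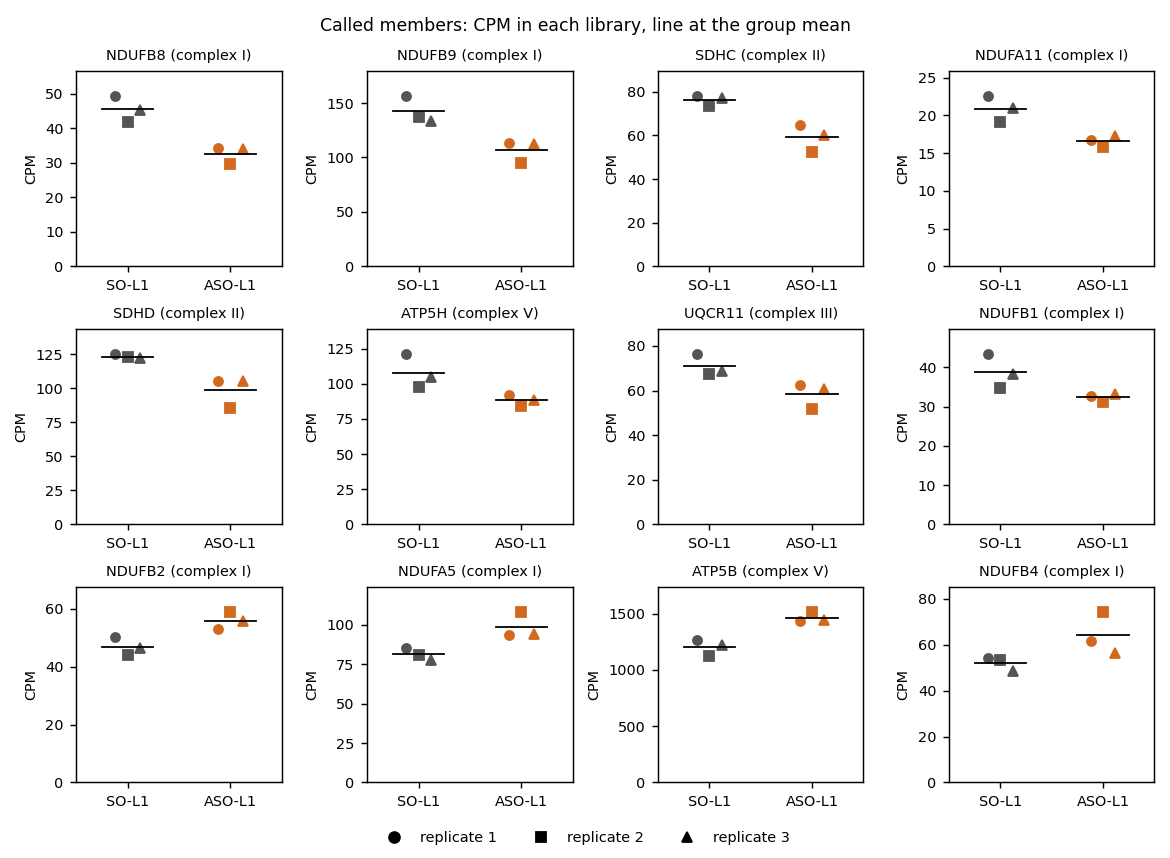
CPM (y axis, from 0) of the 12 called members in each library, with circles, squares and triangles for replicates 1, 2 and 3 and a line at the group mean. The groups do not overlap for any of the 12, and NDUFB8 falls from a mean of 45.5 to 32.6 CPM.

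In complex II, succinate dehydrogenase, both membrane anchors fell while the catalytic subunits did not pass the test. Thus 2 of 4 members were called (50%), against 33.7% of all genes. SDHC had 78.0, 73.6 and 77.2 CPM in SO-L1 and 64.7, 52.6 and 60.3 CPM in ASO-L1. SDHD had 124.9, 122.8 and 122.1 CPM in SO-L1 and 105, 85.3 and 105 CPM in ASO-L1. For both anchors the groups did not overlap, and ASO-L1 replicate 2 was the lowest. The log2 fold change was -0.37 ± 0.08 for SDHC (SE, adjusted p = 0.00879 by edgeR) and -0.32 ± 0.08 for SDHD (SE, adjusted p = 0.0162 by edgeR).

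SDHB, the iron-sulfur subunit, had 76.0, 67.1 and 70.2 CPM in SO-L1 and 77.4, 87.6 and 79.2 CPM in ASO-L1. All ASO-L1 libraries lay above the control libraries, with a log2 fold change of 0.20 ± 0.08 (SE, adjusted p = 0.0728 by edgeR, and 0.0362 with the replicate block). SDHA, the flavoprotein that oxidises succinate, had a mean of 104 ± 4.75 CPM in SO-L1 and 99.2 ± 7.06 CPM in ASO-L1 (SD, n = 3 each), a log2 fold change of -0.07 ± 0.07 (SE, adjusted p = 0.512 by edgeR). The SDHD call was lost without SO-L1 replicate 1 (adjusted p = 0.0673 by edgeR) and without SO-L1 replicate 3 (0.0555).

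Within a library, the ratio of 2 genes' reads does not depend on the library's size. These ratios were chosen after the values were seen, are not scaled for gene length and are a description with no test. SDHC to SDHB was 1.03, 1.1 and 1.1 in SO-L1 and 0.836, 0.6 and 0.761 in ASO-L1. SDHD to SDHB was 1.64, 1.83 and 1.74 in SO-L1 and 1.36, 0.974 and 1.33 in ASO-L1. Both ratios were lower in each ASO-L1 library than in any SO-L1 library. This separation follows from the CPM values above, where the anchors were lower and SDHB higher in every ASO-L1 library, and is no further support. The summed CPM of complex II was 374.4 ± 11.6 in SO-L1 and 338.5 ± 19.0 in ASO-L1 (SD, n = 3 each).

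**Figure D5:**
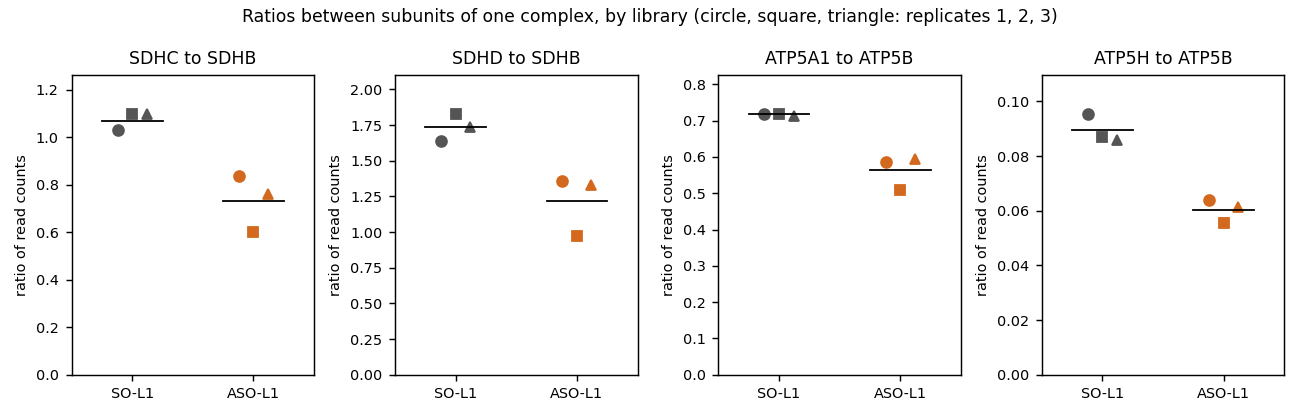
Ratio of read counts between subunits of 1 complex (y axis, from 0) in each library, with circles, squares and triangles for replicates 1, 2 and 3 and a line at the group mean. In all 4 panels the ASO-L1 libraries lie below the SO-L1 libraries, as for SDHC to SDHB with 0.836 at most against 1.03 at least. Except for ATP5A1 to ATP5B, this follows from the CPM of the single genes, whose groups did not overlap.

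In complex III, the cytochrome bc1 complex, 1 of 9 members was called (11.1%), against 33.7% of all genes. UQCR11, a small accessory subunit, had 76.3, 67.5 and 69.0 CPM in SO-L1 and 62.7, 51.8 and 60.8 CPM in ASO-L1. The groups did not overlap, and the log2 fold change was -0.28 ± 0.09 (SE, adjusted p = 0.0319 by edgeR). Leaving out replicate 1 of the controls gave UQCR11 an adjusted p of 0.133 by edgeR, and leaving out replicate 3 gave 0.0765. The core subunit UQCRC1 was at 0.09 ± 0.06 and the Rieske iron-sulfur protein UQCRFS1 at 0.11 ± 0.07 (log2 fold change, SE), with adjusted p of 0.289 and 0.263 by edgeR. The median of complex III was 0.00.

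In complex IV, cytochrome c oxidase, edgeR called none of 11 tested members, and neither did DESeq2 or limma-voom. At an unadjusted p under 0.05, 1 was higher and 2 were lower. Over all genes 33.7% were called at the stricter adjusted limit. COX7C went from 199 ± 20.7 to 170 ± 8.99 CPM (SD, n = 3 each), a log2 fold change of -0.22 ± 0.08 (SE, adjusted p = 0.0569 by edgeR, and 0.00562 with the replicate block). COX6C was at -0.20 ± 0.08 (SE, adjusted p = 0.0712, and 0.0159 with the block) and COX6A1 at 0.26 ± 0.10 (SE, adjusted p = 0.0644, and 0.0185 with the block). Thus the block added 3 calls in this complex, in both directions.

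Several complex IV subunits exist as a widely expressed and a tissue-restricted isoform. COX4I1, the common form of the regulatory subunit COX4, stood at 308 ± 29.8 CPM in SO-L1 and 317 ± 11.8 CPM in ASO-L1 (SD, n = 3 each), while COX4I2 had 5, 4 and 17 reads in SO-L1 and 4, 3 and 2 in ASO-L1. COX7A1, the muscle form of COX7A, had 9, 1 and 6 reads in SO-L1 and 3, 9 and 12 in ASO-L1, and COX6B2, the testis form of COX6B, was at 1.74 ± 0.375 and 1.64 ± 0.195 CPM (SD, n = 3 each). COX6A2, COX7B2 and COX8C were among the dropped rows, with 0, 0 and 3 reads in all. The restricted forms were thus at or near 0 in both groups.

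In complex V, ATP synthase, 1 of 16 members was called higher and 1 lower (12.5% in all), against 33.7% of all genes. ATP5B, the catalytic beta subunit of the F1 head, had 1267, 1122 and 1224 CPM in SO-L1 and 1438, 1513 and 1446 CPM in ASO-L1. Every ASO-L1 library lay above the controls. The mean rose from 1204 ± 74.6 to 1466 ± 41.0 CPM (SD, n = 3 each), a log2 fold change of 0.28 ± 0.07 (SE, adjusted p = 0.00929 by edgeR). ATP5A1, the alpha subunit that alternates with beta in the head, was at 863 ± 54.0 and 824 ± 47.7 CPM (SD, n = 3 each), a log2 fold change of -0.07 that was not called (adjusted p = 0.483 by edgeR).

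ATP5H, subunit d of the peripheral stalk, had 121, 97.5 and 105 CPM in SO-L1 and 91.7, 83.9 and 88.8 CPM in ASO-L1. The groups did not overlap, with SO-L1 replicate 1 the highest, and the log2 fold change was -0.29 ± 0.08 (SE, adjusted p = 0.0243 by edgeR). The ATP5H call did not hold when control replicate 1 (adjusted p = 0.0966 by edgeR), control replicate 3 (0.0626) or replicate 1 of ASO-L1 (0.0504) was left out. The ratio of ATP5A1 to ATP5B reads was 0.719, 0.717 and 0.713 in SO-L1 and 0.587, 0.509 and 0.594 in ASO-L1, which is a description chosen after the values were seen. The 3 genes for subunit c of the membrane ring, ATP5G1, ATP5G2 and ATP5G3, encode the same mature protein, and their log2 fold changes were -0.12 ± 0.09, -0.01 ± 0.06 and 0.01 ± 0.07 (SE), none called. With the replicate block ATP5S was also called lower (adjusted p = 0.0477 by edgeR).

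Summed over members, complex I stood at 2595 ± 168 CPM in SO-L1 and 2451 ± 36.3 CPM in ASO-L1 (SD, n = 3 each). Complex III stood at 1380 ± 86.7 and 1370 ± 12.6 CPM, complex IV at 1465 ± 128 and 1401 ± 31.4 CPM, and complex V at 3614 ± 232 and 3769 ± 51.9 CPM. In complexes I, III, IV and V the difference between the group means was smaller than the SD of the SO-L1 libraries. By replicate number the complex I sum was nevertheless lower in ASO-L1 in all 3 pairs, at 2785 and 2471, 2464 and 2409, and 2536 and 2473 CPM, while complexes III, IV and V had pairs in both directions. All 79 members summed to 9429 ± 620 CPM in SO-L1 and 9330 ± 141 CPM in ASO-L1, a difference smaller than the spread of the controls.

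Many promoters of respiratory chain genes are known to carry sites for NRF1, for ETS factors such as GABP, and for YY1. Windows from 250 bases before to 50 after the start, from RefSeq on GRCh38.p14, were searched on both strands, and 62 of the 77 tested members had an entry. The NRF1 word GCGCATGCG was in 11 of 62 members (17.7%), against 1.92% of all 35116 windows and 3.96% of the tested genes with an entry. The ETS word CCGGAAGT was also in 11 (17.7%), against 4.14% and 9.08%. The YY1 word AAGATGGCG was in 9 (14.5%), against 1.75% and 4.25%. None of the 3 words contains another, but the full NRF1 palindrome matches its word on both strands. The members' median log2 fold change with and without the ETS word was -0.115 and -0.087, where over all tested genes with an entry it was 0.042 and -0.021. With and without the NRF1 word it was -0.058 and -0.09 for the members and -0.032 and -0.013 for all. With and without the YY1 word it was -0.115 and -0.087 for the members and 0.002 and -0.015 for all. A match is a description of letters and not of a bound site.

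The following 180 bases before the start are shown because they set a called anchor of complex II beside its uncalled partner SDHB, and members called lower (UQCR11, ATP5H) beside one called higher (NDUFB4). Capitals mark matches to the words above, and each is written 5′ to 3′ on the gene's own strand. They lie at chr11:112086693-112086872 (plus strand) for SDHD, chr1:17054033-17054212 (minus) for SDHB, chr19:1605463-1605642 (minus) for UQCR11, chr17:75046970-75047149 (minus) for ATP5H and chr3:120596156-120596335 (plus) for NDUFB4.
SDHD: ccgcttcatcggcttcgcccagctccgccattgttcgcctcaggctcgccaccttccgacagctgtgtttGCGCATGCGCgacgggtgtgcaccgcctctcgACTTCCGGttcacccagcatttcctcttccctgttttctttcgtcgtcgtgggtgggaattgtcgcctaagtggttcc
SDHB: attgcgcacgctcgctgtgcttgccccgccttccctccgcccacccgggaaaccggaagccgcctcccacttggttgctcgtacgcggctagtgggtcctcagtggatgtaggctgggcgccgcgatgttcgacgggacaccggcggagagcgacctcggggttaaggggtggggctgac
UQCR11: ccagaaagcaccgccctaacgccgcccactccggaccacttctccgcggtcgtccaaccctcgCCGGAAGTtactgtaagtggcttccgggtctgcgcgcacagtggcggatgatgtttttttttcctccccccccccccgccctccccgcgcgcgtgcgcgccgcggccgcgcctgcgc
ATP5H: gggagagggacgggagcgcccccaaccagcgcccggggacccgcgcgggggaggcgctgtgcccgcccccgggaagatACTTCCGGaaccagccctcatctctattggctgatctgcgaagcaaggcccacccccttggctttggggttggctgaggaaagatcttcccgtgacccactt
NDUFB4: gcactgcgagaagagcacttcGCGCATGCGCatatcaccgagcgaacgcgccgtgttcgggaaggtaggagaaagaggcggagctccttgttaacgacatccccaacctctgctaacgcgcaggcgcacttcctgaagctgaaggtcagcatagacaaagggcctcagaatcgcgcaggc
SDHD, which fell, holds the NRF1 word from base -110 and the ETS word on the reverse strand from base -78, counted from the start. NDUFB4, which rose, also holds the NRF1 word, from base -159, so that word was present in members called in either direction. UQCR11 and ATP5H, both lower, hold the ETS word from base -117 and base -102. Of the 11 members with the ETS word, 3 were called lower and 0 higher, and those 3 are all shown here. Of the 51 without it, 3 were called lower (NDUFA11, NDUFB1 and NDUFB8, not shown) and 3 higher. Whether the word and the direction go together was not tested. The stretch shown for SDHB holds none of the 3 words, and its only match is a YY1 word from base 11 after the start. 

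Among regulators of mitochondrial biogenesis, 4 of 14 tested were called higher and 4 lower, where 18% and 15.7% of all genes were called in these directions. NRF1, the transcription factor named above, fell from 27.0 ± 0.879 to 18.4 ± 1.82 CPM (SD, n = 3 each), a log2 fold change of -0.55 ± 0.09 (SE, adjusted p = 0.00319 by edgeR). GABPB2, a partner subunit of GABP, rose by 0.65 ± 0.12 (log2 fold change, SE, adjusted p = 0.00409 by edgeR), and the coactivator PPRC1 by 0.31 ± 0.06 (adjusted p = 0.00613).

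Of the 13 protein-coding genes of mitochondrial DNA, 2 were called higher (15.4%) and none lower. Over all genes 18% were called higher and 15.7% lower. The median log2 fold change of the 13 genes was 0.07. MT-ND1 had 1659, 1679 and 2033 CPM in SO-L1 and 2219, 2120 and 2324 CPM in ASO-L1, and MT-ND2, also a core subunit of complex I, had 1677, 1652 and 2127 CPM in SO-L1 and 2305, 2210 and 2487 CPM in ASO-L1. Their groups did not overlap, and their log2 fold changes were 0.31 ± 0.08 (SE, adjusted p = 0.0185 by edgeR) and 0.36 ± 0.10 (adjusted p = 0.019). Neither was called without replicate 1 of SO-L1 (0.0828 and 0.0881), replicate 2 of SO-L1 (0.0593 and 0.0608) or replicate 3 of ASO-L1 (0.0554 and 0.0547). Of 18 factors that copy, transcribe or translate mitochondrial DNA, 4 were called higher (22.2%) and none lower, beside the same 18% and 15.7% of all genes. Among the 4 was C10orf2, the helicase Twinkle, at a log2 fold change of 0.45 (adjusted p = 0.00377 by edgeR).

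Assembly factors were called in both directions, with 2 higher and 1 lower of 16 for complex I, 1 and 1 of 4 for complex II, 1 and 2 of 6 for complex III, and 4 and 3 of 21 for complex IV. In that order 18.8%, 50%, 50% and 33.3% of the factors were called, where 33.7% of all genes were. For complex V none of 4 was called by edgeR, DESeq2 or limma-voom, and 1 was lower at an unadjusted p under 0.05. With the replicate block TMEM70, which is listed for both complex V and complex I, was called lower (adjusted p = 0.0431 by edgeR). With the block the counts were 3 higher and 4 lower for complex I, TMEM70 among the 4. They were 2 and 2 for complex II, 2 and 2 for complex III and 4 and 4 for complex IV. The complex II factor SDHAF1 rose by 0.73 ± 0.17 (log2 fold change, SE, adjusted p = 0.0108 by edgeR, and 0.0523 without replicate 1 of SO-L1), and the complex III factor BCS1L, which inserts the Rieske protein, by 0.56 ± 0.09 (adjusted p = 0.00241). SURF1, needed to build complex IV, fell by 0.47 on the same scale (adjusted p = 0.00546). Of the mitochondrial ribosomal proteins 6 of 74 were called higher and 8 lower (18.9% in all). Of the import and cristae genes 6 of 34 were called higher and 3 lower (26.5%). Both shares were under the 33.7% of all genes. With the block these counts were 12 and 14, and 9 and 5, where 23.3% of all genes were called higher and 22.5% lower.

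Of 23 TCA cycle genes 5 were called lower (21.7%), SDHC and SDHD among them, and none higher by edgeR, DESeq2 or limma-voom. At an unadjusted p under 0.05, 4 were higher. Over all genes edgeR called 15.7% lower and 18% higher. With the replicate block edgeR called 3 higher, namely SDHB, IDH3B (adjusted p = 0.0317) and PDHA1 (0.0468), and 6 lower. Also among the 5 were PC (pyruvate carboxylase, -0.42 ± 0.12, adjusted p = 0.0229 by edgeR) and IDH2 (-0.50 ± 0.14, adjusted p = 0.0249), as log2 fold changes with SE. Without replicate 1 of SO-L1 neither PC nor IDH2 was called (0.0875 and 0.0909). PC was also lost without replicate 2 of SO-L1 (0.0582) and IDH2 without replicate 3 of SO-L1 (0.0927). Of the subunits that the symbol rule does not reach, NDUFAB1, the acyl carrier protein of complex I, fell from 177 ± 8.21 to 151 ± 1.21 CPM (SD, n = 3 each). Its log2 fold change was -0.22 ± 0.06 (SE, adjusted p = 0.0179 by edgeR, 0.0678 without replicate 1 of SO-L1 and 0.0691 without replicate 1 of ASO-L1). NDUFA4L2, a paralog of NDUFA4, had 69, 10 and 61 reads in SO-L1 and 1, 2 and 9 in ASO-L1 and was called lower (adjusted p = 0.0119 by edgeR, and 0.0578 without replicate 2 of ASO-L1), with SO-L1 replicate 2 close to the ASO-L1 libraries.

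The authors' deposited table of the same comparison lists all 79 members and called 21.4% of its 20964 genes at an adjusted p under 0.05. By the authors' deposited table, a count of 1 member was higher and 5 were lower (7.59%), and all 6 were among the 12 called here. The log2 fold changes of the authors' deposited table differed from those given here by at most 0.07.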

How the data were processed

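The deposited table of raw counts has 1 row per gene symbol, and its title names duplicate removal, a step that without molecular identifiers reduces high counts the most. Per the submitters' processing notes, the tools were TopHat2 2.0.13, Subread 1.5.0, featureCounts and Trim Galore 0.4.0, with hg19. No source used here gives the annotation, the strand setting or the treatment of overlapping genes. The authors' comparison table gives log2 fold changes, p-values and scores, per the file headers, and their batch-corrected log2 table was not used here.

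Counts were tested with edgeR 4.0.16 in R 4.3.3 (TMM, filterByExpr with a minimum count of 10 and total of 15, robust quasi-likelihood, two-sided, Benjamini-Hochberg over 16873 genes). CPM values are TMM-normalised. DESeq2 1.42.0, limma-voom 3.58.1, other filters, a 1.2-fold threshold and left-out libraries were alternatives. The method was tested on simulated data. Same-numbered libraries deviated together (correlations 0.139, 0.442 and 0.283), so the numbers were taken as pairs from the data. This pairing is uncertain for numbers 1 and 3, since SO-L1 replicate 1 correlated more with ASO-L1 replicate 3 (0.19) than with its own number, and SO-L1 replicate 3 with ASO-L1 replicate 1 gave 0.226. Exon overlaps come from GENCODE 29 on GRCh38. Members and lists were chosen with earlier results of these data known, and the promoter words and their length after values were seen. Named genes were the 5 members per complex with the smallest p, all SDH and ATP5G genes, the complex IV isoform pairs, NDUFA4, the largest rise and fall, and up to 3 genes per other list, of which 1 is not reported here.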

Additional observations from a re-analysis of the deposited data

How the results depend on the processing

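With the replicate block, calls moved from 4 to 8 higher, from 8 to 17 lower, from 7 to 15 in complex I and from 0 to 3 in complex IV, where dropping the filter on low counts gave 2. The counts for complexes II, III and V, the named genes and the sum over the other lists moved by at most 1.5 times with the block, whose pairing is uncertain. Against a 1.2-fold threshold 0 members were higher and 1 lower (1 in complex I, 0 in complexes II, III and V), 1 named gene was called in place of 10, and calls in the other lists went from 58 to 11. Leaving out 1 library gave 1 to 4 higher, 3 to 11 lower, 2 to 6 in complex I, 1 to 2 in II, 0 to 1 in III, 0 to 2 in IV, 1 to 2 in V, 4 to 11 among named genes and 22 to 50 in the other lists. Leaving out a replicate number in both groups, which leaves fewer samples, gave 0 to 4 higher, 0 to 22 lower, 0 to 17 in complex I, 0 to 2 in II, 0 to 1 in III, 0 to 3 in IV, 0 to 3 in V, 0 to 14 among named genes and 4 to 82 in the other lists, with 23 there without number 3. Calls over all genes also moved, from 3031 higher and 2653 lower to 3931 and 3788 with the block and 1261 and 805 against the 1.2-fold threshold. Without 1 library they were 1601 to 2903 higher and 1374 to 2456 lower. Without number 1, 2 or 3 of both groups they were 757, 3726 or 1611 higher and 426, 3471 or 1209 lower. Over 16 settings NDUFB8 kept its call in 15, NDUFB9 in 14, SDHC and ATP5B in 13, NDUFB4 in 7 and NDUFB1 in 4.

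Reversals of sign were seen for uncalled genes alone, with sizes up to 0.088 in log2 fold change. Leaving out 1 library gave -0.054 to 0.027 for ATP5G2, -0.052 to 0.064 for ATP5G3, -0.028 to 0.115 for COX4I1, -0.252 to 0.048 for COX6B2, -0.063 to 0.063 for COX7B, -0.065 to 0.02 for NDUFA4, -0.008 to 0.076 for CYC1, -0.021 to 0.068 for USMG5 and -0.05 to 0.02 for ATPIF1. Without replicate 1 of both groups ATP5G2 was 0.019, COX7B 0.058, UQCRB 0.004 and ATPIF1 0.049. Without replicate 2 of both ATP5G3 was -0.028, COX4I1 -0.039 and USMG5 -0.008. Without replicate 3 of both ATP5G3 was -0.012, COX6B2 0.088 and NDUFA4 0.007. With no filter ATP5G3 was -0.003, and with the CPM filter COX7B was 0.001. Apart from the fewer samples, the cause was not tested. Low counts limit NDUFA13, NDUFV2, COX4I2 and COX7A1.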
